A study of Anableps anableps with 4 samples.

Results

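The 448 spots described here are the photoreceptor and inner retina spots of 2 developing sections of Anableps anableps, a fish whose eye is divided so that it sees in air and in water together. They were chosen by marker counts. In each spot with at least 100 UMIs (unique molecular identifiers, each counting 1 captured RNA) and under 20% of its UMIs in crystallin genes, the UMIs of 7 photoreceptor genes (GNAT1, GNAT2, arr3a, gngt2b, PDE6C, pde6ha and RBP3) were summed, and separately those of 6 inner retina genes (rlbp1a, VSX1, cabp5a, RBPMS2, pax10 and GABRR2). A photoreceptor spot had a photoreceptor sum of 3 or more that was over 2 times its inner retina sum, and an inner retina spot had an inner retina sum of 2 or more that was above its photoreceptor sum. The rule found 293 photoreceptor and 155 inner retina spots among 1914 spots with enough UMIs in the developing sections, out of 2070 spots in those files and 5175 in the series.

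The study placed 10 µm sections of fresh frozen tissue on Visium slides, which capture polyadenylated RNA on a grid of barcoded spots, so that a spot is a small region that can hold several cells or parts of cells. The developing samples were a stage 4 head and a capture area that held a stage 3 head together with a stage 5 eye, here called the stage 3 and 5 section. The stages on that area cannot be told apart, because spot positions were not used. The other material of the series was 2 adult eye sections, labelled adult 1 and adult 2 and here called adult eye 1 and adult eye 2, and all 4 samples carried the same batch label. No strain, treatment or genetic change was given in the labels for any sample. Whether the developing sections came from different animals was not stated, so each section is 1 sample with no replicate and the intervals below cover counting error only.

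Photoreceptors are the light-sensing cells at the back of the retina. Cones and rods stack opsins in their outer segments, which lie against the pigment epithelium, the layer that recycles the retinal chromophore and takes up shed outer segment tips. They pass their signal through ribbon synapses to the inner retina, where bipolar and horizontal cells, amacrine cells and ganglion cells process it and Mueller glia span the tissue and remove glutamate.

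Both classes were present in both sections. The stage 4 head held 135 photoreceptor spots, 11.9% of its 1135 spots with enough UMIs (exact binomial 95% interval 10.1 to 13.9), and 88 inner retina spots, 7.75% (6.26 to 9.47). The stage 3 and 5 section held 158 photoreceptor spots, 20.3% of 779 (17.5 to 23.3), and 67 inner retina spots, 8.6% (6.73 to 10.8). The summed UMIs were 367915 in photoreceptor and 187129 in inner retina spots of the stage 4 head, and 253649 in photoreceptor and 113012 in inner retina spots of the stage 3 and 5 section. The median spot held 1571 UMIs in the photoreceptor and 1135 in the inner retina class of the stage 4 head, and 1444.5 in the photoreceptor and 1577 in the inner retina class of the stage 3 and 5 section. Spot barcodes, which recur between capture areas, were shared by 95 to 1015 spots for each pair of the 4 libraries. Since spots pool cells, fewer cells of a type and less RNA per cell cannot be told apart.

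Many spots lay close to the thresholds. In the photoreceptor class the median photoreceptor sum was 9 UMIs in both sections. The sum was exactly 3, the lowest allowed, in 23 spots of the stage 4 head and 22 of the stage 3 and 5 section, while 27 and 20 spots with a sum of 2 fell just outside. In the inner retina class the median sum was 4 UMIs in the stage 4 head, with 7 in the stage 3 and 5 section. It was exactly 2 in 26 and 12 spots of those sections, and 71 and 35 spots with a sum of 1 fell just outside. The inner retina class therefore rested on fewer UMIs per spot than the photoreceptor class, more so in the stage 4 head.

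The markers behind the label separated the classes, as they had to, since they chose the spots, and the following values are a description of the rule. The cone transducin gamma subunit gngt2b was at 2422 CPM (counts per 1000000 UMIs of the class) in photoreceptor spots and 128 CPM in inner retina spots of the stage 4 head. The stage 3 and 5 section had 2074 CPM in photoreceptor and 274 CPM in inner retina spots. The cone arrestin arr3a, which quenches active opsin, was at 527 CPM in photoreceptor and 32.1 CPM in inner retina spots of the stage 4 head, and at 639 and 79.6 CPM in those classes of the stage 3 and 5 section. The retinaldehyde-binding protein gene rlbp1a was at 250.1 CPM in photoreceptor and 1384 CPM in inner retina spots of the stage 4 head, and at 229 and 726 CPM in those classes of the stage 3 and 5 section. The paired-box factor pax10 had only 5 UMIs in photoreceptor and 9 in inner retina spots of the stage 4 head, and 5 and 17 UMIs in those classes of the stage 3 and 5 section.

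The inner retina class was carried by 2 of its 6 genes. RBPMS2, an RNA-binding protein of ganglion cells, had a UMI in 84.1% of inner retina spots of the stage 4 head and 94.0% of those of the stage 3 and 5 section, and rlbp1a in 71.6% and 56.7%, while pax10 had one in 5.68% and 19.4%. The bipolar cell genes added little. VSX1 had 10 UMIs in photoreceptor and 19 in inner retina spots of the stage 4 head, and 12 and 7 UMIs in those classes of the stage 3 and 5 section. The bipolar calcium-binding protein cabp5a had 38 UMIs in photoreceptor and 19 in inner retina spots of the stage 3 and 5 section, and GABRR2, a GABA receptor subunit, had at most 3 UMIs in any class. When each marker was taken out of the rule and its own ratio then read, so that it no longer chose the spots, all 7 photoreceptor genes had ratios above 0 in both sections, with log2 ratios of photoreceptor over inner retina from 2.21 to 4.66 in the stage 4 head, with 0.84 to 3.67 in the stage 3 and 5 section. The lowest, PDE6C, had an interval there of -0.02 to 1.88, which includes 0. Under the same reading rlbp1a had log2 ratios of -0.83 in the stage 4 head, with -1.02 in the stage 3 and 5 section, RBPMS2 -3.27 and -1.74 with 44 and 15 inner retina spots left, and pax10 -1.66 and -1.85. The pax10 interval in the stage 4 head was -3.66 to 0.09, which includes 0. VSX1 was at -0.90 and -0.06 and cabp5a at -0.98 and 0.56. Their intervals in the stage 4 head were -2.21 to 0.43 and -4.77 to 2.81, and those in the stage 3 and 5 section also included 0. The bipolar markers thus did not separate the classes on their own in either section.

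**Figure D1:**
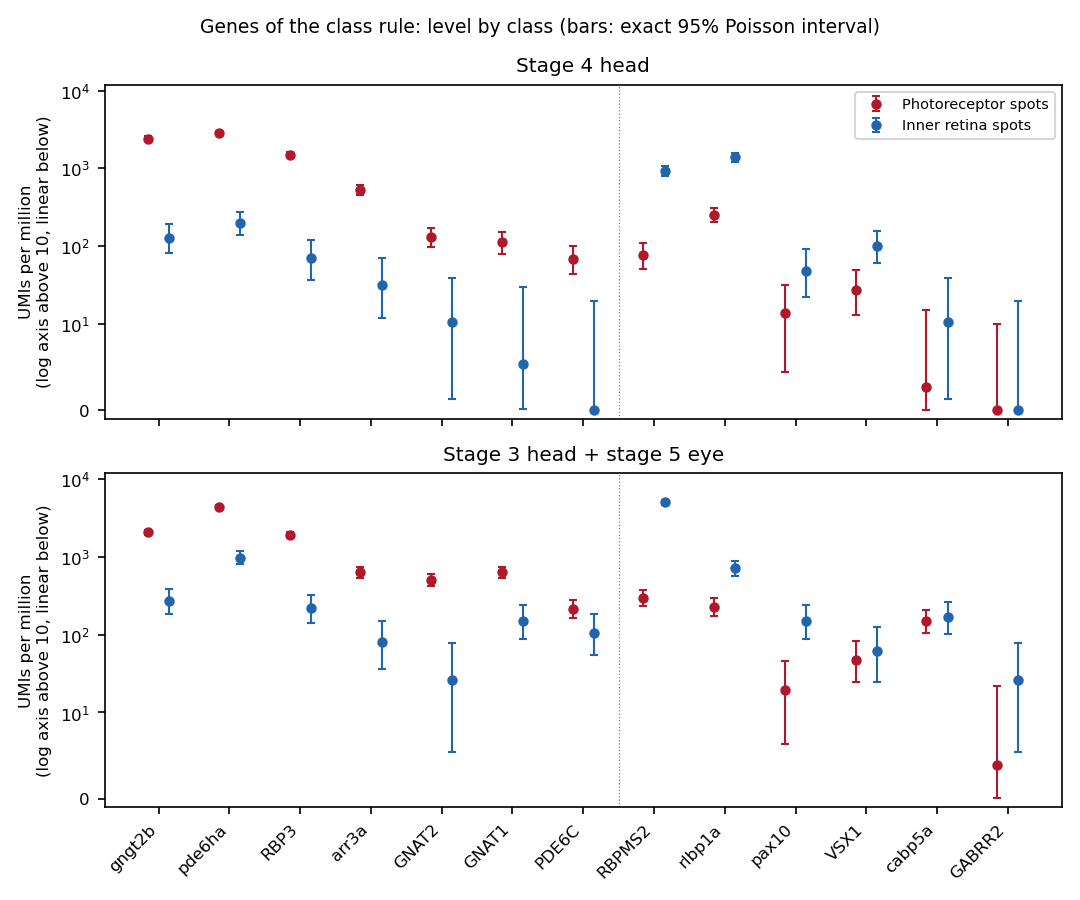
CPM of each of the 13 rule genes in photoreceptor spots (red, left) and inner retina spots (blue, right) of both developing sections, with exact 95% Poisson intervals, on an axis that is logarithmic above 10 CPM and linear below. The 7 photoreceptor genes lie higher in photoreceptor spots and RBPMS2 and rlbp1a higher in inner retina spots, as the rule made them. The intervals of PDE6C, VSX1, cabp5a and GABRR2 overlap between the classes in the stage 3 and 5 section. In the stage 4 head those of pax10, cabp5a and GABRR2 overlap.

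Over all genes the comparison of the classes had 2828 genes with at least 10 UMIs over both classes in each developing section, out of 20598 genes by symbol or identifier, with the 13 rule genes left out. Ratios are log2 of photoreceptor over inner retina CPM, with 0.5 UMI added to each class, and where a pair of ratios is given the stage 4 head stands first. A gene is called photoreceptor-high or inner-retina-high where it was at least 2-fold higher in that class in both sections. There were 185 photoreceptor-high genes (6.54% of those measured) and 204 inner-retina-high genes (7.21%), and 105 and 109 of them had counting intervals clear of 0 in both sections. The rest, some of them named below by their ratios alone, had an interval that included 0 in at least 1 section. The median gene had a log2 ratio of -0.18 in the stage 4 head, with -0.14 in the stage 3 and 5 section. The sizes of these sets depend on the scaling. With TMM scaling, which sets the classes level on a trimmed mean of gene ratios, the medians became 0.27 and 0.27 and the calls 307 photoreceptor-high and 100 inner-retina-high, so that 75.4% of calls were photoreceptor-high, against 47.6% without it. Because the classes were picked on genes of the same spots, these counts are a description with no test. A gene measured through 1 class alone was bound to differ, so the list counts and medians below are no support for a list. Each list count is to be read beside the 6.54% and 7.21% called over all measured genes.

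**Figure D2:**
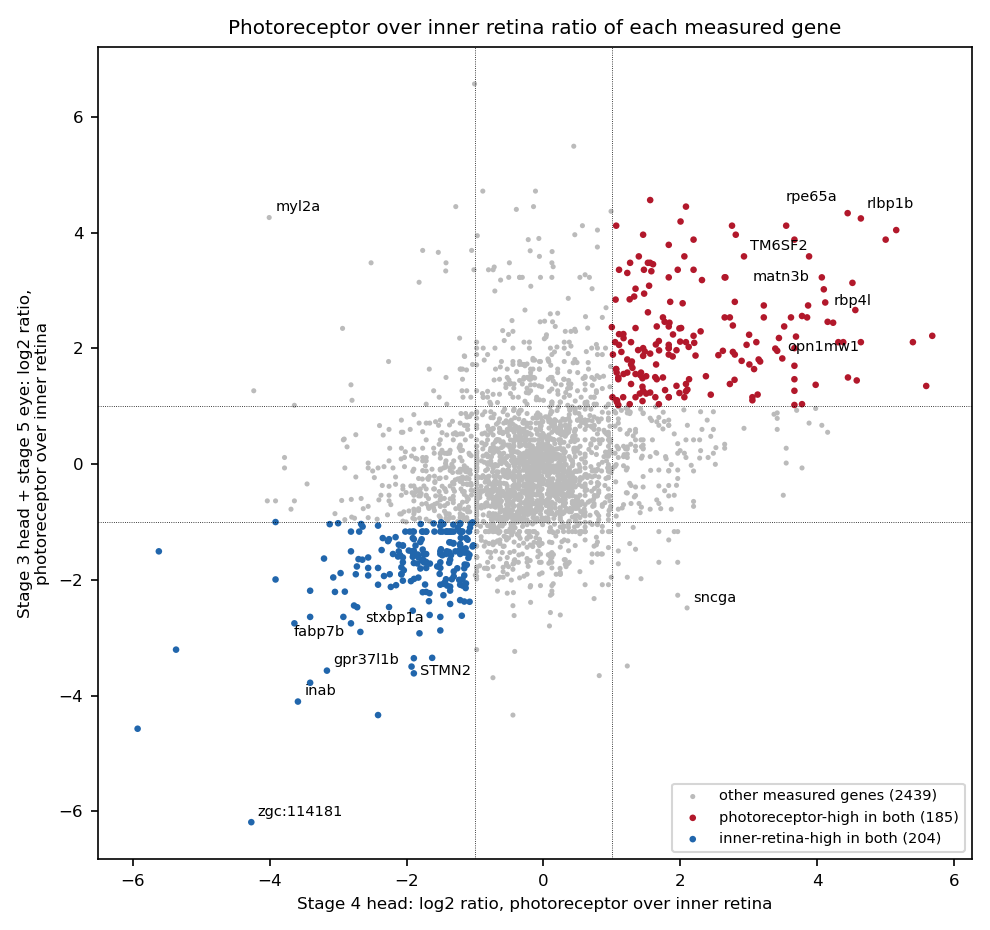
Log2 ratio of photoreceptor over inner retina for each measured gene, with the stage 4 head on the horizontal axis and the stage 3 and 5 section on the vertical axis, and dashed lines at 2-fold. The 185 photoreceptor-high genes lie at upper right and the 204 inner-retina-high genes at lower left, and a few named genes, such as sncga, lie in opposite corners.

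Cone opsins were higher in photoreceptor spots of both sections. Of 4 cone opsin genes in the files, 3 were measured and all 3 were photoreceptor-high. The middle-wavelength opsin opn1mw1 was at 783 CPM in photoreceptor and 69.5 CPM in inner retina spots of the stage 4 head (288 and 13 UMIs), a log2 ratio of 3.44 with a counting interval of 2.70 to 4.42. Levels in the stage 3 and 5 section were 1379.9 CPM in photoreceptor and 301 CPM in inner retina spots, a log2 ratio of 2.18 (1.69 to 2.75). Its UMIs reached 45.2% of photoreceptor and 13.6% of inner retina spots of the stage 4 head, where 4.35% of crystallin-rich spots, which should lack it and had a median of 2652 UMIs, had one. In the stage 3 and 5 section the shares were 67.1% of photoreceptor, 26.9% of inner retina and 3.70% of crystallin-rich spots, which had a median of 2230.5 UMIs. Thinned to 500 UMIs per spot, the share in the stage 4 head was 27.5% of photoreceptor (19.4 to 36.9) and 3.7% of inner retina spots (0.77 to 10.4). In the other section it was 41.3% of photoreceptor (32.6 to 50.4) and 12.9% of inner retina spots (5.74 to 23.9). The thinned shares left out 26 photoreceptor and 7 inner retina spots of the stage 4 head and 32 and 5 of the other section.

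The long-wavelength opsin opn1lw1 was sparser. It had 19 UMIs in photoreceptor spots and 1 in inner retina spots of the stage 4 head, and 58 and 4 UMIs in those classes of the stage 3 and 5 section, with log2 ratios of 2.73 and 2.53 and intervals of 0.62 to 8.65 and 1.26 to 4.62. In the adult eyes the same rule gave no UMI of opn1lw1 in either class of adult eye 1, and 4.3 CPM in photoreceptor spots and 0 CPM in inner retina spots of adult eye 2. The short-wavelength opsin opn1sw2 had 41 UMIs in photoreceptor spots and none in inner retina spots of the stage 4 head, at least 6.95-fold higher against a floor of 3 UMIs in the inner retina sum. In the stage 3 and 5 section it had 14 UMIs in photoreceptor and 1 in inner retina spots, and the interval of its log2 ratio (-0.08 to 8.04) included 0.

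The transduction cascade outside the rule showed 7 photoreceptor-high and no inner-retina-high gene among 13 measured of 46 in the files, with median log2 ratios of 2.12 in the stage 4 head, with 1.16 in the stage 3 and 5 section, where all measured genes had -0.18 and -0.14. The cascade runs from opsin through transducin to a phosphodiesterase that closes the cyclic-nucleotide channels. The cone transducin beta subunit gnb3b was at 228 CPM in photoreceptor and 16 CPM in inner retina spots of the stage 4 head, and 382 and 61.9 CPM in those classes of the stage 3 and 5 section. The rod transducin gamma subunit GNGT1 was at 106 CPM in photoreceptor and 10.7 CPM in inner retina spots of the stage 4 head, and 1435 and 301 CPM in those classes of the stage 3 and 5 section. Its log2 ratios were 3.01 and 2.23. In photoreceptor spots its level was over 10 times higher in the stage 3 and 5 section (39 UMIs in the stage 4 head and 364 there). The inner retina level of the stage 4 head rested on 2 UMIs, under the floor of 3, so no fold between sections is given for that class. This difference between 2 samples was not tested. The phosphodiesterase inhibitory subunit pde6gb had log2 ratios of 2.12 and 2.02, and phosducin (PDC), which binds transducin beta-gamma, 1.83 and 2.06. The shut-off genes followed, with rgs9a, which speeds transducin's GTP hydrolysis, at 23 UMIs in photoreceptor and none in inner retina spots of the stage 4 head, at least 3.9-fold higher, and at a log2 ratio of 1.45 in the stage 3 and 5 section. The guanylate cyclase activator guca1d and the RGS9 partner gnb5b completed the 7.

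Several cascade genes did not pass. The rod arrestin saga had 15 UMIs in photoreceptor spots and none in inner retina spots of the stage 4 head, but a log2 ratio of 0.96 in the stage 3 and 5 section, just under 2-fold. The cone exchanger SLC24A2 had 11 UMIs in each class of the stage 4 head and 12 in each class of the stage 3 and 5 section. Its log2 ratios of -0.98 and -1.17, not past 2-fold in the stage 4 head, came from the unequal class totals. So few UMIs do not settle a direction. The beta subunit gnb1a stood at 0.49 and 0.24. The opsin kinases grk1a and grk7a were too sparse to measure in the stage 4 head, with 1 and 2 UMIs in photoreceptor spots and none in inner retina spots. In the stage 3 and 5 section they had 37 and 32 UMIs in photoreceptor spots and 1 UMI each in inner retina spots. The opsin kinases were thus counted mainly in the stage 3 and 5 section, a difference between samples that was not tested either.

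Genes that build the outer segment and its cilium gave 7 photoreceptor-high and no inner-retina-high gene among 12 measured of 28 in the files, with medians of 1.79 and 1.49. The disc-rim protein genes rom1a and rom1b had log2 ratios of 1.11 and 2.06 and of 2.00 and 2.12. The disc-forming membrane protein gene prom1b was at 269 CPM in photoreceptor and 21.4 CPM in inner retina spots of the stage 4 head, and 327 and 88.5 CPM in those classes of the stage 3 and 5 section. IMPG2, a proteoglycan of the matrix between photoreceptors and pigment epithelium, had 18 UMIs in photoreceptor spots and none in inner retina spots of the stage 4 head, at least 3.05-fold higher, and 30 and 2 UMIs in those classes of the stage 3 and 5 section. The axoneme protein gene RP1 had 1.75 and 2.53, the outer segment cadherin CDHR1 1.56 and 1.91 and the ciliary GTPase ARL6 1.83 and 1.16. In the stage 4 head these ratios rested on few UMIs. RP1 had 16 in photoreceptor and 2 in inner retina spots, CDHR1 14 and 2, ARL6 10 and 1, and rom1a 27 and 6. The second prominin copy, prom1a, was not called and had 6 UMIs in photoreceptor and 8 in inner retina spots of the stage 4 head.

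Of the photoreceptor transcription factors, 5 of 9 measured (21 in the files) were photoreceptor-high and none was inner-retina-high, with medians of 1.66 and 1.46. CRX, the homeobox factor that switches on photoreceptor genes, was at 351 CPM in photoreceptor and 48.1 CPM in inner retina spots of the stage 4 head, a log2 ratio of 2.79 (1.90 to 4.03). In the stage 3 and 5 section it was at 229 CPM in photoreceptor and 79.6 CPM in inner retina spots, 1.46 (0.50 to 2.72). NEUROD1, which drives neuronal differentiation, was at 337 CPM in photoreceptor and 42.8 CPM in inner retina spots of the stage 4 head, and 501 and 142 CPM in those classes of the stage 3 and 5 section. The rod factor NR2E3 had log2 ratios of 2.65 and 2.53, the CRX relative otx5 1.89 and 2.24 and six7, which in zebrafish is needed for green cones, 1.66 and 2.38. In the stage 4 head six7 had only 15 UMIs in photoreceptor and 2 in inner retina spots. NRL, the rod-determining factor, had positive ratios of less than 2-fold (0.95 and 0.76). They rested on only 9 UMIs in photoreceptor and 2 in inner retina spots of each section, too few to settle a direction. RORB (-2.23 and -0.70) and MEF2D (-1.89 and -0.38), which act in photoreceptor development in mice, had negative ratios in both sections without passing 2-fold in both, and TMM scaling brings MEF2D to about 0 in the stage 3 and 5 section.

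**Figure D3:**
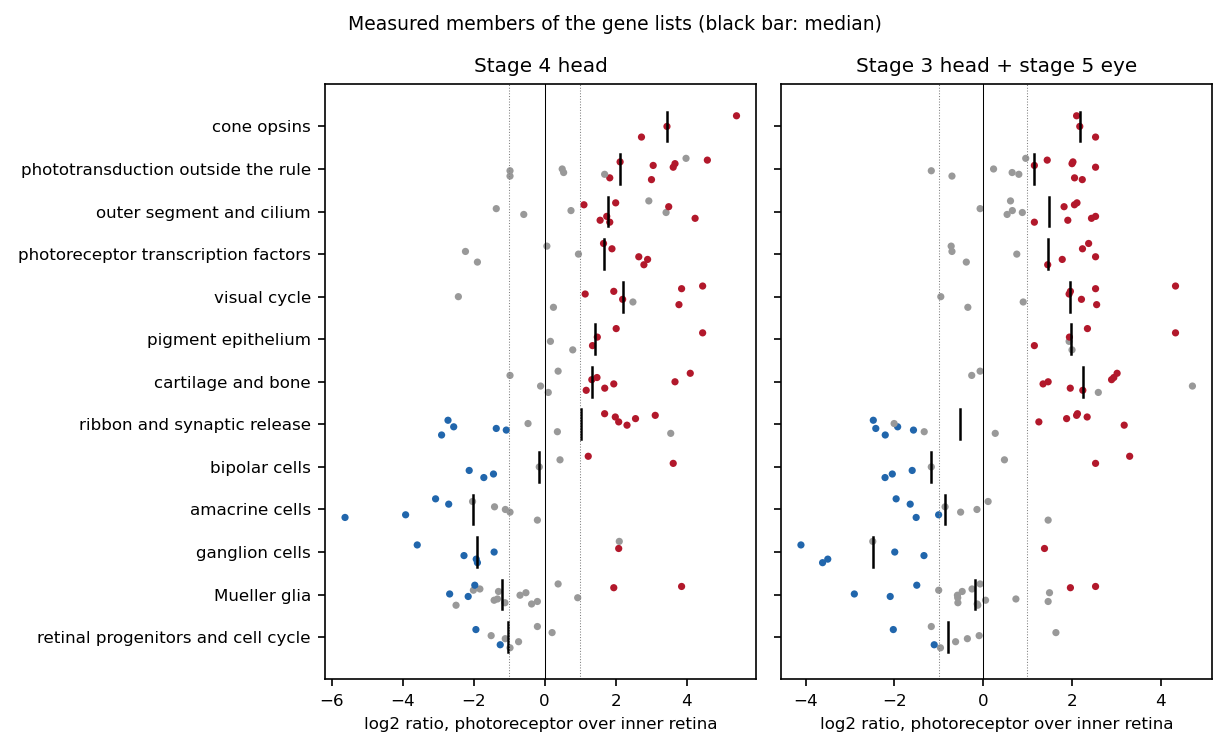
Log2 ratio of photoreceptor over inner retina for every measured member of each retinal gene list, with 1 panel per section, 1 point per gene and a black bar at the list median (red, photoreceptor-high, blue, inner-retina-high, grey, not called). The opsin, cascade, outer segment and visual cycle lists lie mostly above 0 in both sections, the amacrine and ganglion lists mostly below 0, and the synaptic list on both sides.

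The 2 photoreceptor-high genes with the highest ratios, ranked by the lower ratio of the 2 sections, were rpe65a and rlbp1b, both of retinoid handling, which returns the chromophore to opsins. Of 9 visual cycle genes measured (20 in the files), 6 were photoreceptor-high and none inner-retina-high, with medians of 2.19 and 1.97. The retinoid isomerase gene rpe65a, known from the pigment epithelium, was at 872 CPM in photoreceptor and 37.4 CPM in inner retina spots of the stage 4 head, a log2 ratio of 4.45 (3.48 to 5.87). The stage 3 and 5 section had 1159 CPM in photoreceptor and 53.1 CPM in inner retina spots, 4.34 (3.31 to 5.91). Spots in neither class held 18.7 CPM in the stage 4 head, with 32.1 CPM in the stage 3 and 5 section, so rpe65a stood out in photoreceptor spots against the rest of each section as well.

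The second retinaldehyde-binding protein gene, rlbp1b, lay on the side opposite to its copy rlbp1a. It was at 1397 CPM in photoreceptor and 53.4 CPM in inner retina spots of the stage 4 head, with a log2 ratio of 4.64 (3.82 to 5.78). Levels in the stage 3 and 5 section were 1088 CPM in photoreceptor and 53.1 CPM in inner retina spots, 4.24 (3.22 to 5.82). In zebrafish the copies divide between pigment epithelium and Mueller glia, but whether the symbols here follow the zebrafish naming could not be checked, and rlbp1a, as a rule gene, was chosen to be on the inner retina side. The retinol-binding protein relative rbp4l was at 881 CPM in photoreceptor and 48.1 CPM in inner retina spots of the stage 4 head, and 2358 and 336 CPM in those classes of the stage 3 and 5 section. The retinal G protein-coupled receptor genes rgra (1.95 and 1.97) and rgrb (3.85 and 2.53), RBP5 (3.78 and 2.56), the retinol carrier receptor STRA6 (2.19 and 2.22) and the outer segment retinol dehydrogenase rdh8a (1.14 and 1.94) made up the 6 called list members with rpe65a, while rlbp1b and rbp4l are not on the list. Outside the calls, RDH5, a pigment epithelium dehydrogenase, had 2.48 and 0.90, RBP4 0.25 and -0.34 and rdh10a -2.43 and -0.95.

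Pigment genes were higher in the same spots. The pigment epithelium list had 4 photoreceptor-high and no inner-retina-high gene among 6 measured of 16 in the files, and its members summed to 2397 CPM in photoreceptor, 529 CPM in inner retina and 197 CPM in unclassed spots of the stage 4 head. In the stage 3 and 5 section the sums were 2909.5 CPM in photoreceptor, 469 CPM in inner retina and 300.3 CPM in unclassed spots. The melanin enzyme gene tyrp1b was at 829 CPM in photoreceptor and 203 CPM in inner retina spots of the stage 4 head, and 698 and 133 CPM in those classes of the stage 3 and 5 section. TYRP1 (1.48 and 1.95), the pigment granule exchanger SLC24A5 (1.35 and 1.16) and rpe65a, which the visual cycle list also holds, were the other called members, while SERPINF1 (0.79 and 2.00) and SLC45A2 (0.16 and 1.94) were not called, since they were under 2-fold in the stage 4 head. At least 1 UMI of the list was in 85.9% of photoreceptor and 38.6% of inner retina spots of the stage 4 head, and in 71.5% and 37.3% of those classes of the stage 3 and 5 section. RNA of the pigment list was thus denser in photoreceptor spots, and its part in any other photoreceptor-high gene was not tested. With every spot that held a UMI of that list left out, 19 photoreceptor and 54 inner retina spots remained in the stage 4 head, with 45 and 42 in the stage 3 and 5 section. Of 718 genes that could then be measured, 48 were photoreceptor-high and 70 inner-retina-high, and 29 of the 185 and 46 of the 204 were among them. Of the visual cycle list 1 gene could then be measured and it was not called. The pigment list holds rpe65a itself, so leaving out these spots removed all of its UMIs by construction. With so few spots left, the other visual cycle genes fell under the count minimum, so their absence from the calls is no result.

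Melatonin synthesis, a photoreceptor function in fish, was represented by aanat1, the enzyme that sets its rhythm. It was at 117 CPM in photoreceptor and 5.34 CPM in inner retina spots of the stage 4 head (43 UMIs and 1 UMI), and at 51.3 and 0 CPM in those classes of the stage 3 and 5 section. The latter rested on 13 UMIs in photoreceptor spots and none in inner retina spots. Against the floor of 3 UMIs, 26.5 CPM in those inner retina spots, the lower bound was under 2-fold. The last enzyme of the pathway, ASMT, was not called (-0.19 and 0.31). The melatonin list as a whole was not particular to photoreceptor spots. It summed to 212 CPM in photoreceptor, 90.8 CPM in inner retina and 158.8 CPM in crystallin-rich spots of the stage 4 head. In the stage 3 and 5 section these sums were 157.7, 53.1 and 252 CPM.

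Inner retina spots were higher in ganglion and amacrine cell genes. The ganglion cell list had 5 inner-retina-high and 1 photoreceptor-high gene among 7 measured of 38 in the files, with medians of -1.89 and -2.49. With TMM scaling 3 were inner-retina-high and 1 photoreceptor-high. Under a crystallin limit of 5% per spot, which leaves 34 of the 88 inner retina spots of the stage 4 head, 4 were measured, 2 of them inner-retina-high, and the stage 4 median was 0.09. The neuronal intermediate filament gene inab was at 10.9 CPM in photoreceptor and 144 CPM in inner retina spots of the stage 4 head, a log2 ratio of -3.59 (-5.71 to -2.21), which was -1.93 under that limit. In the stage 3 and 5 section it was at 118 CPM in photoreceptor and 2062 CPM in inner retina spots, -4.10 (-4.72 to -3.57). Its UMIs were in 2.96% of photoreceptor and 22.7% of inner retina spots of the stage 4 head, and in 8.23% and 61.2% of those classes of the stage 3 and 5 section. Of the deeper crystallin-rich spots, 11.3% held one in the stage 4 head, as did 1.85% in the other section. Thinned to 500 UMIs, the stage 4 shares were 7.41% of inner retina (2.77 to 15.4) and 5.05% of crystallin-rich spots (1.66 to 11.4), so the share of spots with inab does not stand clear of background there. STMN2, a tubulin-binding protein of growing axons, was at 19 CPM in photoreceptor and 74.8 CPM in inner retina spots of the stage 4 head, and 106 and 1221 CPM in those classes of the stage 3 and 5 section. The ganglion cell homeobox gene ISL2 had log2 ratios of -1.89 and -3.62, the axon adhesion molecule alcamb -2.27 and -1.33 and the factor ebf3a -1.42 and -1.99. The photoreceptor-high member was inaa (2.08 and 1.38), and sncga lay on opposite sides in the sections (2.10 and -2.49). The list was denser in the stage 3 and 5 section, where its members summed to 785 CPM in photoreceptor and 6106 CPM in inner retina spots, against 397 CPM in photoreceptor and 561 CPM in inner retina spots of the stage 4 head. In the stage 4 head sncga alone held 88 of the 146 list UMIs in photoreceptor spots and 10 of 105 in inner retina spots. RBPMS2, the rule gene of the same cell type, chose many of these spots. When it was taken out of the rule, 44 and 15 inner retina spots were left and the count of inner-retina-high genes went to 476.

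Amacrine cells, the inhibitory interneurons, had 4 inner-retina-high genes and no photoreceptor-high gene among 9 measured of 33 in the files, with medians of -2.03 and -0.86. Under the 5% crystallin limit 3 were measured, with 1 inner-retina-high and medians of -0.79 and -0.99. The GABA transporter slc6a1a was at 13.6 CPM in photoreceptor and 123 CPM in inner retina spots of the stage 4 head, a log2 ratio of -3.07 (-4.93 to -1.75) that was -0.42 under the 5% crystallin limit, and at 78.8 and 309.7 CPM in those classes of the stage 3 and 5 section. The vesicular GABA and glycine transporter SLC32A1 had no UMI in photoreceptor and 12 in inner retina spots of the stage 4 head, at least 7.86-fold higher in inner retina spots, and 7 and 9 UMIs in those classes of the stage 3 and 5 section. The eye-field factor pax6b had log2 ratios of -2.70 and -1.64. TFAP2A, a factor of amacrine and horizontal cells, had -3.91 and -1.001, the latter only just past the threshold. The GABA-synthesising enzyme gad1b was called in neither direction (-1.11 and -0.14). Calretinin calb2a had no UMI in photoreceptor and 7 in inner retina spots of the stage 4 head, too few to be measured, and 12 and 100 UMIs in those classes of the stage 3 and 5 section. VIP, also too sparse to be measured, lay the other way. It had 7 UMIs in photoreceptor and 1 in inner retina spots of the stage 4 head, and 64 and 4 in the other section. With a minimum of 5 UMIs per gene, 13 list genes were measured, with 6 inner-retina-high and 1 photoreceptor-high.

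Bipolar cell genes were split. Of 7 measured of 33 in the files, 3 were inner-retina-high and 2 photoreceptor-high, where all measured genes had 7.21% and 6.54%. The medians were -0.15 and -1.17, the first of which is 0.29 with TMM scaling. ISL1 (-1.44 and -2.05), a factor of ON bipolar, ganglion and amacrine cells, and GNG13 (-1.71 and -2.21), a G protein subunit of ON bipolar cells, were among the inner-retina-high genes. The photoreceptor-high members were gnb3b, which cones share, and the ON bipolar channel gene trpm1b, with 11 UMIs in photoreceptor and 2 in inner retina spots of the stage 4 head and 77 and 3 UMIs in those classes of the stage 3 and 5 section. TRPM1 is also a gene of pigment cells. Its copy trpm1a was not called (0.43 and 0.48). Of 3 horizontal cell genes measured of 11 in the files, TFAP2A was inner-retina-high at the threshold, which it missed with TMM scaling, a pseudocount of 0.1 or spots with over 5% muscle UMIs left out, ndrg1b photoreceptor-high (3.87 and 2.74) and prox1a neither (-2.03 and 0.11). Of 37 transmitter receptor and channel genes in the files, only gabrr3a had enough UMIs to be measured, and it was not called.

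Mueller glia genes summed higher in inner retina spots of both sections, though few single members were called. In the stage 3 and 5 section fabp7b and apoeb carried that difference. Among 18 measured of 34 in the files, 3 were inner-retina-high and 2 photoreceptor-high, where all measured genes had 7.21% and 6.54%. These small counts are not read as a trait of the list. Its medians were -1.21 and -0.19, the second of which is 0.21 with TMM scaling. The sums were 3900.4 CPM in photoreceptor and 11228 CPM in inner retina spots of the stage 4 head, and 4282 and 8433 CPM in those classes of the stage 3 and 5 section. Of the list's UMIs in the latter section, fabp7b and apoeb held 377 and 198 of 953 in inner retina spots. In photoreceptor spots they held 113 and 104 of 1086, and the remaining members together were near level between the classes. The brain-type fatty acid-binding protein gene fabp7b was at 758 CPM in photoreceptor and 4847 CPM in inner retina spots of the stage 4 head, and 446 and 3336 CPM in those classes of the stage 3 and 5 section. A single spot held 58.1% of its UMIs in photoreceptor spots of the stage 4 head, and a single spot held 29.0% of those in inner retina spots there. The lipid carrier gene apoeb was at 201 CPM in photoreceptor and 898 CPM in inner retina spots of the stage 4 head, and 410.0 and 1752 CPM in those classes of the stage 3 and 5 section, with single spots holding 27.4% and 37.4% of the inner retina UMIs. The glutamate transporter slc1a2b had log2 ratios of -1.97 and -1.49. Glutamine synthetase glula (-1.30 and -0.47), CLU (-1.12 and -0.57) and the carbonic anhydrase cahz (-0.69 and -0.58) were lower in photoreceptor spots of both sections without passing 2-fold in both. The photoreceptor-high members were the opsin relatives rgra and rgrb, which the visual cycle list also holds.

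Progenitor and cell-cycle genes had 2 inner-retina-high members and no photoreceptor-high one among 8 measured of 43 in the files. All measured genes had 7.21% and 6.54%. The list medians were -1.04 and -0.79. The called members were stmn1a and SIX3. The cell-cycle genes hmgb2b, ube2c, RRM2 and TYMS were measured and not called, while PCNA and ccnd2a had too few UMIs in the stage 4 head to be measured. The calls thus give no reading of cell division in either class. The tubulin-destabilising gene stmn1a was at 73.4 CPM in photoreceptor and 283 CPM in inner retina spots of the stage 4 head, and 319 and 1301 CPM in those classes of the stage 3 and 5 section. The eye-field factor SIX3 had log2 ratios of -1.25 and -1.10, and with TMM scaling 1 member of the list was inner-retina-high, while rx2, a retinal homeobox gene that fish photoreceptors also use, had 0.21 and 1.64 and was not called.

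Synaptic genes divided between the classes under the rule as given. Of 14 release genes measured of 46 in the files, 6 were photoreceptor-high and 5 inner-retina-high, with medians of 1.02 and -0.53, and with TMM scaling 6 and 3. Under the 5% crystallin limit 9 were measured, with 5 photoreceptor-high, 1 inner-retina-high and medians of 1.78 and 1.07. The inner retina side of the split thus shrank under that limit, which left 34 of the 88 inner retina spots of the stage 4 head. An effect of crystallin-bearing spots cannot be told apart here from that of fewer UMIs and fewer measured genes. Complexin cplx4a, of a family that clamps vesicle fusion at ribbon synapses, had 24 UMIs in photoreceptor and 2 in inner retina spots of the stage 4 head, and 30 and 1 UMIs in those classes of the stage 3 and 5 section. The paralogue cplx3b ran the other way, with 7 UMIs in photoreceptor and 22 in inner retina spots of the stage 4 head and 40 and 68 UMIs in those classes of the stage 3 and 5 section. The syntaxin-binding copies were split in the same manner. stxbp1b had log2 ratios of 2.56 and 1.88, whereas stxbp1a was at 21.7 CPM in photoreceptor and 149.6 CPM in inner retina spots of the stage 4 head, and 110.4 and 619 CPM in those classes of the stage 3 and 5 section. Its stage 4 log2 ratio of -2.72 was -0.18 under the 5% crystallin limit. The calcium sensors syt5a (3.11 and 2.11) and syt5b (1.69 and 2.13), the vesicle protein sv2ba (1.99 and 2.34) and stx3a (2.08 and 1.26), the syntaxin of ribbon synapses, were photoreceptor-high. The active-zone scaffold RIMS2 (-2.90 and -2.20), the vesicle protein SYP (-1.36 and -2.42) and the synuclein SNCB (-1.08 and -1.57) were inner-retina-high. SNAP25, part of the fusion machinery, was called in neither direction (0.36 and -1.33).

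A few energy metabolism genes were called, in both directions, including copies of the same enzyme. Of 27 glycolysis and creatine kinase genes measured of 34 in the files, 3 were photoreceptor-high and 3 inner-retina-high, with medians of -0.49 and -0.72. With TMM scaling those calls were 5 and 1. Under the 5% crystallin limit 25 were measured, with 1 photoreceptor-high and none inner-retina-high. Over all measured genes 6.54% were photoreceptor-high and 7.21% inner-retina-high, so these counts are not read as a trait of the list. Of 16 measured mitochondrial genes of the citric acid cycle and its shuttles none was called. The glucose transporter slc2a1a was at 188 CPM in photoreceptor and 5.34 CPM in inner retina spots of the stage 4 head, and 138 and 17.7 CPM in those classes of the stage 3 and 5 section. With 1 UMI in inner retina spots of the stage 4 head, its log2 ratio of 4.56 had an interval of 2.61 to 10.46. The copy slc2a1b was not called and had negative ratios (-1.68 and -0.73). The enolase eno1b was photoreceptor-high (1.07 and 1.10), as was the mitochondrial creatine kinase CKMT2 (1.38 and 1.97). Enolase eno1a was at 2506 CPM in photoreceptor and 7054 CPM in inner retina spots of the stage 4 head, and 1892 and 3796 CPM in those classes of the stage 3 and 5 section. The neuronal enolase ENO2 (-3.41 and -3.78) and GAPDHS (-1.13 and -1.28), a glyceraldehyde-3-phosphate dehydrogenase, were inner-retina-high.

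Among a/b gene copies with both members measured, 62 pairs were found by symbol. In 37 pairs neither copy was called, in 14 only 1 was, in 7 both were called in the same direction and in 4 they were called in opposite directions. The 4 were rlbp1a and rlbp1b, of which rlbp1a is a rule gene, inaa and inab, stxbp1a and stxbp1b, and eno1a and eno1b. The filament gene inaa had 12 UMIs in photoreceptor and 1 in inner retina spots of the stage 4 head, and 20 and 3 UMIs in those classes of the stage 3 and 5 section. The pairs were picked out after the values had been seen, and reads shared between near-identical copies could be split by the counting in ways not given in the sources used here. Over all measured genes 6.54% were photoreceptor-high and 7.21% inner-retina-high. The same counts were not made for pairs of unrelated genes, so the pair counts are not read as a trait of gene copies.

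**Figure D4:**
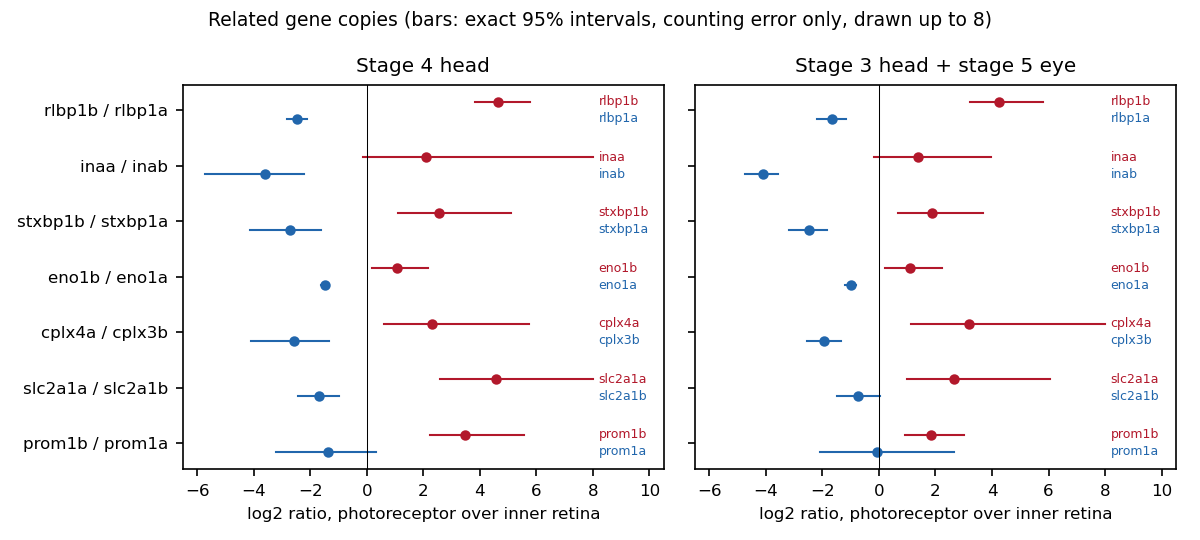
Log2 ratios of photoreceptor over inner retina for related gene copies in both developing sections, with bars for the 95% counting interval drawn up to 8. In each pair shown 1 copy lies above 0 and its partner lies lower in the same section, and wide bars mark copies with few UMIs.

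Genes outside the lists also led the ranking, which required at least 20 UMIs over both classes in each section. The inorganic pyrophosphatase ppa1a had 22 UMIs in photoreceptor spots and none in inner retina spots of the stage 4 head, at least 3.73-fold higher, and 29 and 1 UMIs in those classes of the stage 3 and 5 section. TM6SF2, a membrane protein known from lipid export in human liver, had log2 ratios of 2.93 and 3.59, and es1, a mitochondrial protein gene of zebrafish cones, 3.52 and 2.38. On the inner retina side, zgc:114181 was at 19 CPM in photoreceptor and 390.1 CPM in inner retina spots of the stage 4 head, and 19.7 and 1575 CPM in those classes of the stage 3 and 5 section. Single spots held 67.1% and 66.9% of those inner retina UMIs. The glial receptor gpr37l1b (-3.16 and -3.57), the neuronal membrane glycoprotein gpm6ab (-2.77 and -2.44), the neuronal calcium sensor vsnl1a (-2.23 and -2.12), the peroxidase relative gpx9 (-1.89 and -1.98), the fatty acid-binding protein FABP2 (-1.83 and -1.96) and fgfbp3 (-2.96 and -1.88), which binds fibroblast growth factors, followed, and 60.7% of the fgfbp3 UMIs of inner retina spots of the stage 4 head lay in a single spot.

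RNA of neighbouring tissues lay in both classes, unequally. Crystallins, the lens proteins, were 14348 CPM in photoreceptor and 46305 CPM in inner retina spots of the stage 4 head, and 6221 and 18494 CPM in those classes of the stage 3 and 5 section. Of 16 measured crystallin symbols 11 were inner-retina-high and none photoreceptor-high, and the median inner retina spot of the stage 4 head had 7.01% of its UMIs in crystallins, against 1.36% in the median photoreceptor spot. Under the 5% limit 103 genes were inner-retina-high, of which 73 were among the 204. The cartilage and bone list had 7 photoreceptor-high and no inner-retina-high gene among 11 measured of 22 in the files, with medians of 1.33 and 2.25. The cartilage matrix gene matn3b had 50 UMIs in photoreceptor and 1 in inner retina spots of the stage 4 head, and 45 and 2 UMIs in those classes of the stage 3 and 5 section. COL2A1, the main cartilage collagen, had log2 ratios of 1.17 and 2.25. Summed cartilage levels were 4656 CPM in photoreceptor, 2485 CPM in inner retina and 5115 CPM in unclassed spots of the stage 4 head. They were 2401 CPM in photoreceptor, 539.8 CPM in inner retina and 1353 CPM in unclassed spots of the stage 3 and 5 section.

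Muscle RNA was uneven among spots. The muscle list summed to 51240.0 CPM in photoreceptor, 46198 CPM in inner retina and 142750.0 CPM in unclassed spots of the stage 4 head, and 6998, 628 and 22996 CPM in those spots of the stage 3 and 5 section. Of its 11 measured genes none was called, while 3 were photoreceptor-high with TMM scaling and 8 of 9 measured under stricter class thresholds (a photoreceptor sum of 5 or more and over 4 times the inner retina sum, or an inner retina sum of 4 or more and over 2 times the photoreceptor sum). A single spot held 66.0% of the list's UMIs in inner retina spots of the stage 4 head, and a single spot held 57.6% in photoreceptor spots of the stage 3 and 5 section. Brain and myelin genes had 2 photoreceptor-high members among 5 measured of 38 in the files. The list summed to 856 CPM in photoreceptor, 518 CPM in inner retina and 676 CPM in unclassed spots of the stage 4 head. In the stage 3 and 5 section these sums were 4806, 2247.5 and 1485 CPM. The myelin gene mbpa had 57.6% of its photoreceptor UMIs in 1 spot of the stage 4 head and 50.5% in 1 spot of the stage 3 and 5 section. For its inner retina UMIs these shares were 34.1% and 84.3%. Of the surface epithelium, connective tissue, vessel and immune, and non-crystallin lens lists, with 4, 8, 4 and 3 genes measured, none had a called gene. Under the stricter thresholds 3 of 4 surface epithelium and 4 of 7 connective tissue genes were photoreceptor-high. Haemoglobin and other blood genes summed to 5759.5 CPM in photoreceptor and 2303 CPM in inner retina spots of the stage 4 head, and 5062 and 3628 CPM in those classes of the stage 3 and 5 section.

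**Figure D5:**
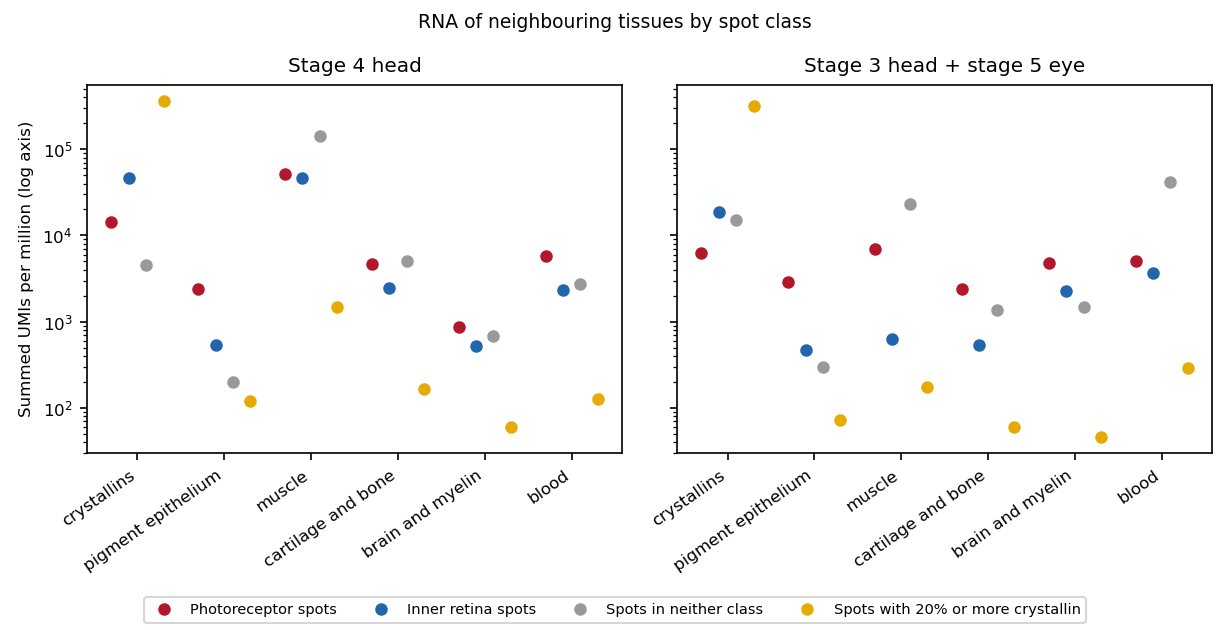
Summed CPM of each neighbouring-tissue gene list in photoreceptor, inner retina, unclassed and crystallin-rich spots of both developing sections, on a log axis. Pigment genes are highest in photoreceptor spots, crystallins are higher in inner retina than in photoreceptor spots, and muscle genes are highest in unclassed spots of both sections.

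The same rule gave 563 spots in the adult eyes, adult eye 1 with 176 photoreceptor and 105 inner retina spots, adult eye 2 with 197 and 85. There were 1.53 photoreceptor spots per inner retina spot in the stage 4 head, with 2.36 in the stage 3 and 5 section, and 1.68 and 2.32 in the adult eyes. Of the 185 genes photoreceptor-high in developing sections, 142 (76.8%) had a log2 ratio above 0 in both adult eyes, as did 35.8% of all measured genes. Of the 204 inner-retina-high genes, 118 (57.8%) were below 0 in both adult eyes, as were 32.2% of all measured genes. The spots of each section were chosen by the same genes, so this likeness was not tested. In adult eye 1 and adult eye 2 the log2 ratios of rpe65a were 5.94 and 3.44, of rlbp1b 3.22 and 3.62, of aanat1 3.33 and 3.73, of opn1mw1 2.44 and 2.00, of inab -3.00 and -2.84, and of fabp7b -1.91 and -1.20. All lay on the same side of 0 as in the developing sections. apoeb did not, with adult levels of 2899 CPM in photoreceptor and 1239 CPM in inner retina spots of adult eye 1 and 2121 and 1182 CPM in those classes of adult eye 2.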

How the data were processed

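Polyadenylated RNA of 4 Visium sections was measured, and the 2 developing ones are described here. The deposited files hold raw UMI counts per gene and spot, made with Space Ranger, per the submitters' processing notes, and its version 3.1.3, per the file headers. Every spot in the files was taken as lying over tissue, which was not checked against positions. The genome build and annotation were not given in the sources used here. Rows that share a symbol were summed, and every file is 1 sample. Depth was 4271990 UMIs in the stage 4 head, with 1514666 in the stage 3 and 5 section.

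Class counts were summed per section and scaled to CPM with Python 3.11.15, numpy 2.4.6, pandas 2.3.3 and scipy 1.17.1. Levels carry exact Poisson intervals and ratios exact conditional Clopper-Pearson intervals at 95%. These cover counting error only. A lower bound used a floor of 3 UMIs in the sum of a class at 0, which is 8.15 CPM in photoreceptor and 16.0 CPM in inner retina spots of the stage 4 head, and 11.8 and 26.5 CPM in those of the stage 3 and 5 section. No test was made, because the rule chose spots on the same counts and each section is 1 sample. TMM factors came from edgeR 4.0.16 in R 4.3.3, and the ratio and interval steps were tested on simulated data. No doublet caller was run on spots. Crystallin-rich spots, with 20% or more of UMIs in crystallins, were used only as background.

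The members and the 25 gene lists were chosen with earlier results of these data known. Named genes were the rule genes, list members with at least 10 UMIs over both classes in each developing section or class-defining members near 0, up to 15 genes per direction with the highest lower ratio among those with at least 20 UMIs, and up to 5 per direction whose ratios opposed each other between sections. Alternatives changed the scaling, count minimum, pseudocount, fold, depth, crystallin limit, rule thresholds, each rule gene in turn, the section, and spots with pigment, brain and myelin, or muscle RNA. A gene of the bipolar cell list is not reported here.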

Additional observations from a re-analysis of the deposited data

Results flagged for a closer look

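Some genes lay on opposite sides in the developing sections, with counting intervals clear of 0 in both, and these differences were not tested. There were 8 such genes higher in photoreceptor spots of the stage 4 head and in inner retina spots of the stage 3 and 5 section, and 35 of the reverse kind. The synuclein gene sncga, known from ganglion cells, had 88 UMIs in photoreceptor and 10 in inner retina spots of the stage 4 head (log2 ratio 2.10), but 47 in photoreceptor and 118 in inner retina spots of the stage 3 and 5 section (-2.49). It was the only measured ganglion cell gene with such a turn. The heparan sulfate proteoglycan SDC3 had a log2 ratio of 1.31 in the stage 4 head, turning to -1.09 in the stage 3 and 5 section, and its relative SDC2 1.06 and -0.90. The respiratory chain genes atp5f1e (0.65 and -0.66) and COX8A (0.60 and -0.78) turned by less than 2-fold in either section.

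The reverse group was led by muscle genes. The myosin light chain myl2a had 25 UMIs in photoreceptor and 208 in inner retina spots of the stage 4 head (-4.01), and 21 in photoreceptor and none in inner retina spots of the stage 3 and 5 section (4.26). Of those 208 UMIs, 56.2% lay in 1 spot. The thick-filament protein mybpc2b had -2.52 and 3.48, with all 12 photoreceptor UMIs of the stage 3 and 5 section in 1 spot. The slow myosin MYH7 had -2.93 and 2.34, with 76.5% of its inner retina UMIs of the stage 4 head in 1 spot, and the troponin tnni1c -1.82 and 3.14, with 74.6% in 1 spot. The GTPase activator arhgap12b had -1.76 and 3.69, from 5 UMIs in photoreceptor and 9 in inner retina spots of the stage 4 head and 14 and 0 in those of the stage 3 and 5 section.

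The lipid carrier gene apoeb was lower in photoreceptor than in inner retina spots of both developing sections (-2.15 and -2.09) and higher in both adult eyes (1.22 and 0.84). The difference between ages was not tested.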

How the results depend on the processing

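Class sums of 113012 to 367915 UMIs limit what can be seen: 2828 of 20598 genes were deep enough, and genes with under 10 UMIs were not read. The 185 photoreceptor-high and 204 inner-retina-high genes became 307 and 100 with TMM scaling, 291 and 406 with a minimum of 5 UMIs, 103 and 88 with 20, 304 and 443 at 1.5-fold, 54 and 22 at 4-fold, and 44 and 35 with spots thinned to 300 UMIs. The stage 4 head alone gave 353 and 531, and the stage 3 and 5 section alone 452 and 503. Leaving out spots with brain or myelin UMIs gave 113 and 95, and leaving out spots with pigment UMIs 48 and 70, with fewer spots and genes by construction. A pseudocount of 3 gave 92 photoreceptor-high genes. Inner-retina-high genes numbered 103 with a 5% crystallin limit, 120 without rlbp1a in the rule and 476 without RBPMS2, and 73, 99 and 114 of these were among the 204. Without RBPMS2, 73 of the 185 photoreceptor-high genes stayed called. Stricter rule thresholds gave 211 and 193, of which 126 and 97 were shared. Leaving out spots with over 5% of UMIs in muscle genes, chosen after seeing the data, gave 190 and 208. Of 358 recomputed ratios of the 15 leading photoreceptor-high genes, 340 stayed within the original 95% interval, 17 moved outside it and 1 changed sign. Of 360 for the 15 leading inner-retina-high genes, 294 stayed, 63 moved and 3 changed sign, and of 235 for the 10 genes opposed between sections, 200 stayed, 30 moved and 5 changed sign. The turned ratios, all in the stage 4 head except apoeb, were gpx9 0.10 under the 5% crystallin limit, apoeb 0.26 (stage 3 and 5 section), myl2a 0.77, MYH7 0.29 and tnni1c 1.13 under stricter rule thresholds, mybpc2b 1.56 without brain or myelin spots, and matn3b -0.38, fabp7b 0.21 and atp5f1e -0.49 without pigment spots. The causes were not tested. With TMM scaling 3 amacrine and 2 bipolar genes were inner-retina-high.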
